A study of Rattus norvegicus with 6 samples.

Results

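The endothelial identity genes are 10 genes whose transcripts mark the cells that line blood vessels: Egfl7, Pecam1, Flt1, Kdr, Tek, Vwf, Icam2, Thbd, Tfpi and Podxl. Their levels were followed in rat aorta by the probe sets whose single gene symbol in the array's annotation is one of these names, each probe set kept apart. Of the 10 genes, 8 had such a probe set, 11 probe sets in all of 8799 on the array. Tek, the angiopoietin receptor, and Podxl, the sialomucin podocalyxin, had none and were not analysed here.

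The samples were aortae of spontaneously hypertensive rats (SHR), an inbred strain with high blood pressure. Runners had 5 weeks of wheel-cage running by choice, and non-runners did not run. Each group had 3 arrays, A, B and C, and each array carried total RNA pooled from 3 aortae. The sources used here do not give age and sex of the rats or how animals were assigned to pools. The p-values therefore measure the spread between pools of 1 group, which may in part be technical. The comparison asks how running affects transcripts of the vessel lining.

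Endothelial cells form a single layer on the inner face of the aorta and also line the small vessels of its outer coat and of the fat around it. They bear receptors for VEGF and angiopoietin, adhesion molecules at the cell border, and anticoagulant proteins that keep blood fluid. In a whole aorta they are few beside smooth muscle cells, and fewer endothelial cells cannot be told apart here from less of a transcript per cell.

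Sequence around the start of these genes is shown for Egfl7 and for the VEGF receptors Flt1 and Kdr, because Egfl7 and Flt1 had the lowest runner values relative to non-runners among the probe sets above background and Kdr is the sister receptor of Flt1. Each window runs from 250 bases before to 50 bases after a RefSeq start on the GRCr8 build, and the RefSeq table gives Egfl7 2 windows. Capitals mark AGGAAG or its reverse complement CTTCCT, a core that proteins of the ETS family, transcription factors used by endothelial cells, can bind.
Egfl7, first window, chr3:29805381-29805680, + strand: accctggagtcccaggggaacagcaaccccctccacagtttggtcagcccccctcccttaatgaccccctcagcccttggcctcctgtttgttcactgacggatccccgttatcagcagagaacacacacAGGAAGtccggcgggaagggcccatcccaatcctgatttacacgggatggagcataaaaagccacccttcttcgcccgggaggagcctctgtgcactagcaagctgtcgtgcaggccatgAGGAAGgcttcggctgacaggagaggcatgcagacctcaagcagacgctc
Egfl7, other window, chr3:29808051-29808350, + strand: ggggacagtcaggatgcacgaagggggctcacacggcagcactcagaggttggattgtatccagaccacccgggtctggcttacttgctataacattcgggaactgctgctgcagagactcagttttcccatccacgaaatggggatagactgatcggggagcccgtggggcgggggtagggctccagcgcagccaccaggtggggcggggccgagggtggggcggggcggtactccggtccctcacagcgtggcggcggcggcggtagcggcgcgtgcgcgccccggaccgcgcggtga
Flt1, chr12:12333180-12333479, + strand: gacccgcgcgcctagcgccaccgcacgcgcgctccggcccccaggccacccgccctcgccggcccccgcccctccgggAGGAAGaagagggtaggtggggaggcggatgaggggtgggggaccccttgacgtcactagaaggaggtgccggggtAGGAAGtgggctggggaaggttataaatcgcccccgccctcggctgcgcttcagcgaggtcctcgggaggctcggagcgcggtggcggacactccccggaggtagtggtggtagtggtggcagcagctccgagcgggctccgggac
Kdr, chr14:32571813-32572112, + strand: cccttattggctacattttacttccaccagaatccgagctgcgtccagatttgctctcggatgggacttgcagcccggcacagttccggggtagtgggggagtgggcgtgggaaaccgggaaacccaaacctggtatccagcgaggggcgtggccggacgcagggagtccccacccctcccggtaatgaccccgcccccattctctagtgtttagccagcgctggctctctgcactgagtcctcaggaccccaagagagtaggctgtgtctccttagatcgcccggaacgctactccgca

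RefSeq gave windows for 5 of the 10 genes, 7 windows in all, and 3 of the 7 (42.9%) held the core on either strand, against 34.5% of 33469 rat windows of the same length. The first Egfl7 window and the Flt1 window held it in 2 places each, where 7.71% of all windows held it in 2 or more. One Tfpi window held it in 1 place, and the other Egfl7 window, the other Tfpi window, Kdr and Podxl held none. A match of 6 letters describes the sequence and does not show a bound site.

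Within the span of Egfl7, and read from the same strand, RefSeq also places the hairpin of miR-126, a microRNA known for its abundance in endothelial cells. Its mature sequences are given to identify it, with the seed (bases 2 to 8) in capitals. The array values used here are of Egfl7 probe sets and do not measure the microRNA.
rno-miR-126a-3p: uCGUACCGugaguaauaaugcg
rno-miR-126a-5p: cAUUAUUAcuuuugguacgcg

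Values are intensities on a linear scale as deposited, which have no read depth, so the number of arrays limits the precision. The control level of 40.8 is the 95th percentile of 19 control probe sets aimed at yeast or sense-strand targets. On all 6 arrays, 4 of the 11 probe sets lay above it (36.4%) and 5 lay below it (45.5%). Over all 8740 probe sets other than controls, 36.8% lay above it and 50.2% below it on every array. Endothelial transcripts were thus measurable in these aortae for Pecam1, Flt1 and Thbd in both groups and for Egfl7 in non-runners, whereas the Kdr, Vwf and Icam2 probe sets did not exceed the control level on any array.

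No member passed the adjusted threshold between the groups. Tests ran on quantile-normalized log2(intensity + 2.4) with limma, with Benjamini-Hochberg adjustment over the 5244 probe sets left after dropping the dimmest 40%. Of the 11 member probe sets, 7 entered that test and 0 had an adjusted p under 0.05, while over the whole array 0 did (0.00%). At an unadjusted p under 0.05, 2 members were lower in runners and 0 higher, where 4.21% of all tested probe sets were lower and 3.87% higher. The 2 were Egfl7 and Flt1. Without non-runner A, 1 was lower (Egfl7) and 2 were higher (Pecam1 and Thbd U90121_at), and Flt1 no longer passed. Over all 11 probe sets, 5 had a negative and 6 a positive log2 difference, with a median of 0.16, and the median over all 8740 was -0.01. That member median was 0.03 without non-runner A and 0.04 without non-runner B. On the normalized scale the groups did not overlap for 1 member in the lower direction (Egfl7) and 1 in the higher (Tfpi), where 7.01% of all 8740 were so lower and 6.50% so higher.

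**Figure D1:**
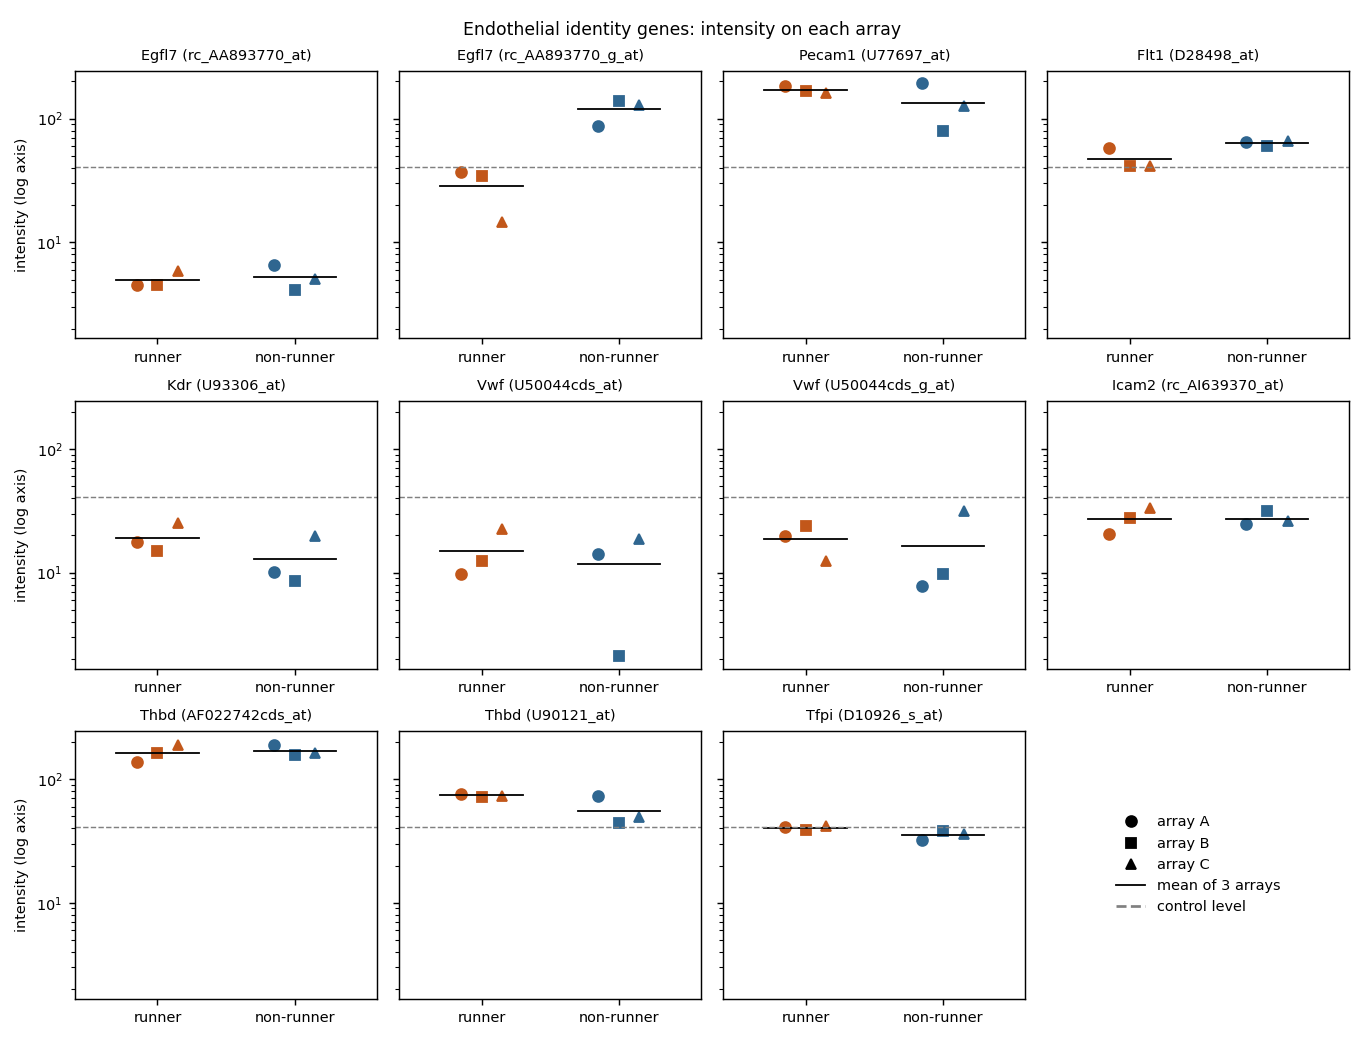
Intensity of each of the 11 member probe sets on a log axis, 1 panel per probe set, runner arrays left and non-runner arrays right. Points are arrays, bars are means of 3 arrays, and the dashed line is the control level of 40.8. The 3 runner values of the brighter Egfl7 probe set lie below that line and its 3 non-runner values above it.

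On measures of RNA quality, non-runner B differed most from the rest. The ratio of beta-actin signal at the 3' end to that at the 5' end, which grows as RNA is degraded, was 2.14 on that array and 1.22 to 1.67 on the others. For GAPDH it was 1.95 there and 1.11 to 1.39 on the others. Mean beta-actin ratios were 1.31 ± 0.11 for runners and 1.70 ± 0.43 for non-runners, with p = 0.3 in a two-sided exact permutation test (n = 3, SD). For GAPDH they were 1.17 ± 0.06 for runners and 1.52 ± 0.38 for non-runners, with an exact permutation p = 0.1, below which 3 arrays per group cannot go. Of the 11 member probe sets, 5 had their lowest value on non-runner B, and the share over all probe sets was not counted. Of the 5, Pecam1 and Thbd U90121_at were above the control level on every array. Egfl7 rc_AA893770_at, Kdr and Vwf U50044cds_at were below it on every array. Because of the 3'/5' ratios, results are also given without that array.

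Egfl7, a secreted protein of endothelial cells that acts in vessel formation, gave the widest gap between the groups among the members. Its brighter probe set, rc_AA893770_g_at, measured 37.2, 34.1 and 14.6 on runner arrays A, B and C, against 86.7, 140.1 and 129.7 on non-runner arrays A, B and C. Every runner value lay below the control level and every non-runner value above it, and the groups did not overlap. The means were 28.6 ± 12.3 in runners, against 119 ± 28.3 in non-runners (SD, n = 3). Because the runner arrays were not above the control level, the difference is given as a bound: Egfl7 was at least 2.73-fold lower in runners, a ratio of mean normalized values with the runner arrays held at the control level. Here "at least" refers only to the control level, and the bound does not include the spread between arrays.

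The limma adjusted p of that probe set was 0.234, so the difference did not pass the threshold, and its log2 size is not given because the runner side is only bounded. The bound was at least 2.49-fold without non-runner B, on which Egfl7 was highest (limma adjusted p = 0.354), and at least 3.17-fold without non-runner A (limma adjusted p = 0.232). Leaving out a runner array cannot move the bound, since all 3 are held at the control level. Without runner C, on which Egfl7 was lowest, the limma adjusted p was 0.629. The limma unadjusted p of Egfl7 did not rise there, at 3.6e-04 against 5.4e-04 in the main fit. It was highest without non-runner B, at 0.0033. The adjusted p depends on all tested probe sets. Of these, 313 had a limma unadjusted p under 0.05 without runner C, against 424 in the main fit. The GAPDH 3'/5' ratio separated the groups as Egfl7 did, at 1.18, 1.22229 and 1.11 on runner arrays A, B and C, against 1.22333, 1.95 and 1.39 on non-runner arrays A, B and C, with runner B and non-runner A nearly equal. The beta-actin ratio was higher on non-runners B and C (2.14 and 1.67) than on any runner array, and on non-runner A it was 1.28, within the runner range. The part of RNA quality in the Egfl7 difference was not tested.

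The other Egfl7 probe set, rc_AA893770_at, made from the same sequence entry, did not show the gene. It measured 4.5, 4.5 and 5.9 on the runner arrays, against 6.6, 4.1 and 5.1 on the non-runner arrays. These values lie far below the control level, so no fold is given, and the Egfl7 result rests on 1 probe set.

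Flt1 and Kdr encode the VEGF receptors VEGFR1 and VEGFR2, which take up the same growth factor at the endothelial surface. Flt1 (D28498_at) measured 57.9, 41.5 and 41.7 on runner arrays A, B and C, against 65.4, 59.6 and 65.7 on non-runner arrays A, B and C. Every deposited runner value was below every non-runner value, but after normalization runner A (0.14 above the mean of the 6 arrays, log2) and non-runner B (0.13 above it) overlapped. The means were 47.0 ± 9.41 in runners, against 63.6 ± 3.44 in non-runners (SD, n = 3), and runners B and C were less than 1 unit above the control level.

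For Flt1 the log2 difference was -0.44 ± 0.19 (SE), with a 95% interval of -0.88 to -0.01, and a limma adjusted p = 0.612. It kept its sign with each array left out, between -0.62 without runner A and -0.34 without runner C. Without non-runner B it was -0.49 ± 0.20 (SE, limma adjusted p = 0.602). Flt1 was, beside Egfl7, the other member at an unadjusted p under 0.05, where it ranked 395 of 5244 by p. It did not pass that unadjusted threshold with the chip letter as a replicate block (limma adjusted p = 0.711), with no filter on dim probe sets (0.72), or without non-runner A (0.526), non-runner C (0.617), runner B (0.925) or runner C (0.853). In the same order, the limma unadjusted p was 0.063, 0.059, 0.09, 0.114, 0.141 and 0.156, against 0.046 in the main fit.

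Kdr (U93306_at) measured 17.7, 14.9 and 25.0 on the runner arrays, against 10.2, 8.6 and 19.9 on the non-runner arrays. All 6 values lie below the control level and the groups overlap, so no difference is given and Kdr could not be set beside Flt1. The plot of values by array shows that the 2 highest Kdr values fell on the C arrays of the 2 groups.

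**Figure D2:**
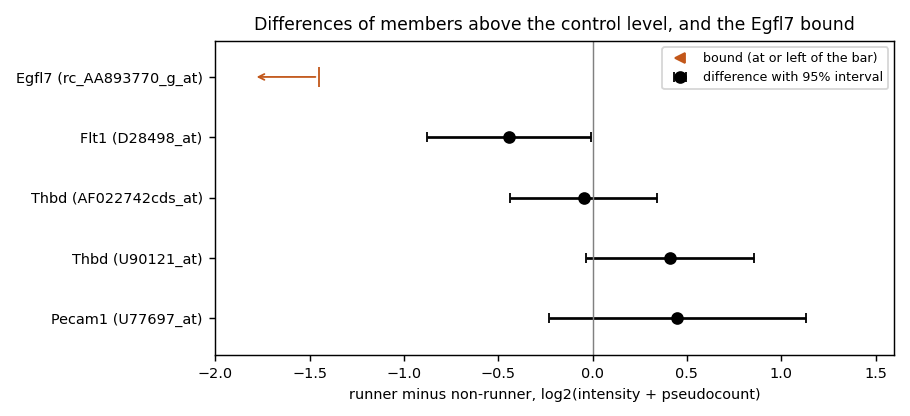
Log2 difference, runner minus non-runner, of the 4 member probe sets above the control level on every array, with 95% intervals from limma, and the Egfl7 bound at -1.45 with an arrow toward larger differences. The interval of Flt1 ends at -0.01, and those of Pecam1 and both Thbd probe sets include 0. The bound has no interval.

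Pecam1, the adhesion molecule CD31 of endothelial cell borders, platelets and leukocytes, was above the control level on every array. Its probe set U77697_at measured 184.4, 167.1 and 161.4 on the runner arrays, against 195.1, 79.2 and 126.3 on non-runner arrays A, B and C. The runner arrays lay close together, while the non-runner arrays held both the highest value (A) and the lowest (B). The means were 171 ± 12.0 in runners, against 134 ± 58.3 in non-runners (SD, n = 3), and the log2 difference was 0.45 ± 0.30 (SE), with a 95% interval of -0.23 to 1.13 (limma adjusted p = 0.726).

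The Pecam1 difference moved with the array left out. It was 0.13 ± 0.20 (SE, limma adjusted p = 0.898) without non-runner B, and 0.77 ± 0.23 (SE, limma adjusted p = 0.41) without non-runner A. Each of these differences was positive, and their size depended on which non-runner pool was included.

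Icam2, an adhesion molecule found on endothelial cells and platelets, was dim on every array. It measured 20.6, 27.4 and 33.0 on the runner arrays, against 24.5, 31.3 and 26.1 on the non-runner arrays. The groups overlap and all 6 values lie below the control level, so no fold is given (limma adjusted p = 0.938). Vwf, the von Willebrand factor that tethers platelets to damaged vessels, was also below the control level on every array. Its probe set U50044cds_at measured 9.8, 12.4 and 22.7 on the runner arrays, against 14.2, 2.1 and 18.7 on the non-runner arrays. The other, U50044cds_g_at, measured 19.7, 24.0 and 12.4 on the runner arrays, against 7.8, 9.8 and 31.4 on the non-runner arrays. Neither was bright enough to enter the test, and the 2 Vwf probe sets ranked the arrays differently, with runner C highest in the first and non-runner C in the second.

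**Figure D3:**
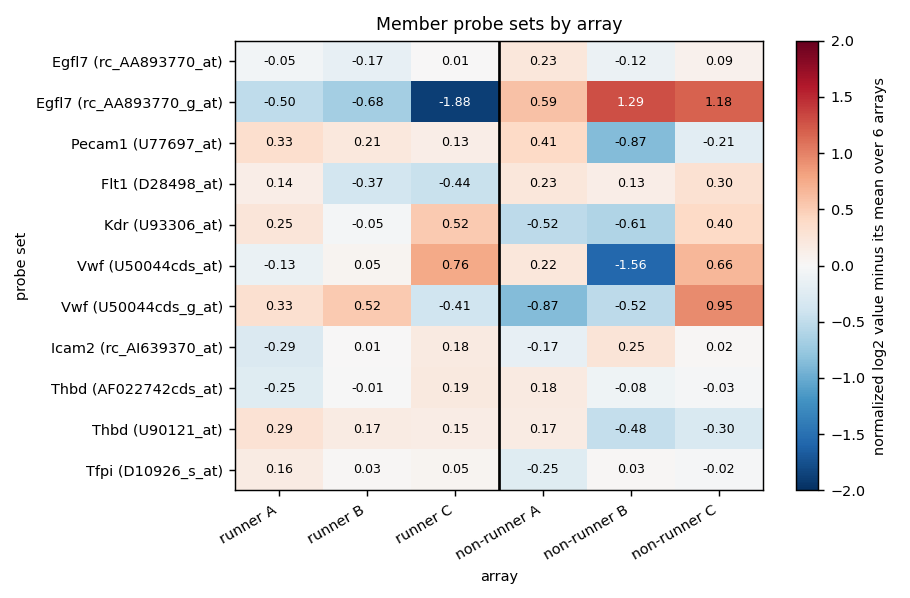
Normalized log2 values of the 11 member probe sets, each minus its own mean over the 6 arrays, with runner arrays left of the black line. The brighter Egfl7 probe set is below its mean on the 3 runner arrays (-0.50, -0.68 and -1.88) and above it on the 3 non-runner arrays (0.59, 1.29 and 1.18), and non-runner B is the lowest array for Pecam1 (-0.87) and for Vwf U50044cds_at (-1.56). Values below the control level, such as those of Egfl7 in runners and of Vwf, show a pattern and not the size of a change.

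Thbd, thrombomodulin, turns thrombin from a clotting enzyme into an activator of the anticoagulant protein C, and had 2 probe sets above the control level on all arrays. AF022742cds_at measured 138.2, 161.9 and 190.1 on the runner arrays, against 187.8, 156.8 and 162.2 on the non-runner arrays. The groups overlap, with means of 163 ± 26.0 in runners, against 169 ± 16.6 in non-runners (SD, n = 3). The log2 difference was -0.05 ± 0.17 (SE), with a 95% interval of -0.44 to 0.34 (limma adjusted p = 0.953), so a change of moderate size either way lies within the interval.

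The other Thbd probe set had a difference of the other sign. U90121_at measured 76.3, 71.5 and 73.5 on the runner arrays, against 73.2, 44.0 and 49.0 on non-runner arrays A, B and C. The runner arrays were within a few units of each other, and non-runner A lay among them while non-runners B and C were lower. The means were 73.8 ± 2.41 in runners, against 55.4 ± 15.6 in non-runners (SD, n = 3), a log2 difference of 0.41 ± 0.19 (SE), with a 95% interval of -0.04 to 0.85 (limma adjusted p = 0.647). Without non-runner B it was 0.27 ± 0.17 (SE, limma adjusted p = 0.758), and without non-runner A 0.60 ± 0.17 (SE, limma adjusted p = 0.373). Non-runners B and C, the low arrays of this probe set, also had the highest beta-actin 3'/5' ratios (2.14 and 1.67), and the part of RNA quality in the difference was not tested. The 2 Thbd probe sets gave differences of opposite sign, but their 95% intervals overlap and both include 0. No direction is therefore given for the gene.

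Tfpi, an inhibitor of the tissue factor pathway that starts clotting, lay around the control level. D10926_s_at measured 41.3, 38.5 and 41.5 on the runner arrays, against 32.4, 37.8 and 35.9 on the non-runner arrays. Every runner value was above every non-runner value, 38.5 and 37.8 being the nearest pair, but only runners A and C passed the control level and by less than 1 unit. No fold is given, and the limma adjusted p was 0.787.

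**Figure D4:**
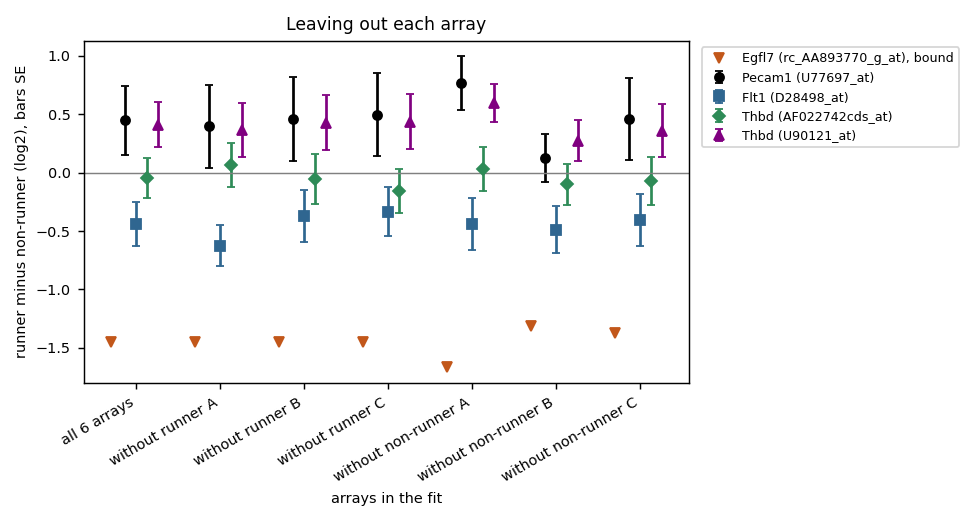
Log2 difference, runner minus non-runner, with SE bars, for Pecam1, Flt1 and both Thbd probe sets in the fit of all 6 arrays and with each array left out, and the Egfl7 bound as triangles without bars. Flt1 stays between -0.62 and -0.34, Pecam1 ranges from 0.13 to 0.77, Thbd AF022742cds_at changes sign, and the Egfl7 bound lies between -1.67 and -1.32, unmoved by runner arrays because they are held at the control level.

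The 5 named probe sets whose 6 values followed those of Egfl7 most closely were Ech1, an enzyme of fatty acid oxidation (Pearson r = 0.99), Faim2 (0.99), Lamp1, a lysosomal membrane protein (0.98), Nexn, an actin-binding protein (0.97), and Gnai2, a G protein subunit (0.97). These correlations run over 6 arrays and include the gap between groups, so they describe the pattern only. Faim2 was below the control level on all arrays and Lamp1 above it on 1, and the 3 runner values of Egfl7 were below it too, so these likenesses rest in part on values at background. Ech1 measured 214.8, 220.9 and 187.6 on the runner arrays, against 259.3, 285.6 and 272.0 on the non-runner arrays. No member was among the 5.

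Other endothelial genes on the array were also followed. Of 40 such genes listed, 20 had a probe set, with 32 probe sets of which 28 were tested. None passed limma's adjusted threshold in either direction (0 higher and 0 lower), and at an unadjusted p under 0.05, 5 were lower and 0 higher. These 5 belong to 3 genes: Nos3 (AJ011116_at, AJ011115_at and AJ011115_g_at), Mmrn1 and Ece1. Over all tested probe sets, 4.21% were lower and 3.87% higher at that unadjusted threshold. Of the 32, 19 had a negative difference and the median was -0.04.

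Mmrn1, multimerin, a protein of platelets and endothelium, measured 53.7, 77.0 and 72.9 on the runner arrays, against 101.9, 131.7 and 84.7 on the non-runner arrays (limma adjusted p = 0.54). Ece1, the enzyme that makes endothelin from its precursor, measured 305.1, 325.2 and 308.3 on the runner arrays, against 412.6, 383.4 and 387.5 on the non-runner arrays (limma adjusted p = 0.583). In both genes the groups did not overlap, but both were named for their small p, so this adds no support. Over the 32 probe sets, the groups did not overlap on the normalized scale for 6 in the lower and 2 in the higher direction. Over all 8740, 7.01% were so lower and 6.50% so higher. Nos3, the endothelial nitric oxide synthase, had 6 probe sets that disagreed. Its probe set AJ011115_g_at averaged 62.1 ± 10.6 in runners, against 87.9 ± 17.3 in non-runners, whereas AF110508_at averaged 66.6 ± 7.57 in runners, against 49.9 ± 10.6 in non-runners (SD, n = 3, limma adjusted p = 0.597 and 0.622). The Nos3 probe set with the smallest p, AJ011116_at, lay below the control level on all arrays, and so did AJ011115_at.

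Among transcription factors used by endothelial cells, 11 of 25 listed genes had a probe set. Of 12 tested probe sets, 0 passed the adjusted threshold, with 1 higher and 1 lower at an unadjusted p under 0.05. Over the whole array, 3.87% of tested probe sets were higher and 4.21% lower at that unadjusted threshold. Klf4, a shear-responsive factor, averaged 272 ± 39.1 in runners, against 416 ± 81.2 in non-runners (limma adjusted p = 0.52). Id3, an inhibitor of helix-loop-helix factors, averaged 291 ± 39.3 in runners, against 182 ± 61.2 in non-runners (adjusted p = 0.581). The 2 genes differed in opposite directions without overlap of the groups, and neither is expressed in endothelium alone. Both were named for their small p, so the lack of overlap adds no support.

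Ligands and co-receptors of the VEGF and angiopoietin systems had 14 probe sets, of which 8 lay below the control level on all arrays. Differences were positive for 11 of the 14 (median 0.29), but for 8 of the 14 without non-runner B (median 0.24), and 0 of 8 tested passed the adjusted threshold. Nrp1, neuropilin, a co-receptor for VEGF, averaged 111 ± 10.4 in runners, against 81.3 ± 13.6 in non-runners (limma adjusted p = 0.583). Angpt2, a ligand of Tek, averaged 64.1 ± 4.90 in runners, against 51.9 ± 3.33 in non-runners (adjusted p = 0.714). The 14 probe sets summed to between 466 and 512 per runner array, against between 306 and 487 per non-runner array, with the 306 on non-runner B.

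The Notch list, included because Egfl7 is known to bind Notch receptors, had 16 probe sets with 9 negative differences and a median of -0.06. Of 11 tested, 0 passed the adjusted threshold and 0 had an unadjusted p under 0.05, while 1 higher and 1 lower did without non-runner B. Notch1 averaged 129 ± 18.4 in runners, against 155 ± 16.4 in non-runners (limma adjusted p = 0.726). The coagulation and fibrinolysis list, to which Thbd and Tfpi are related, had 19 probe sets with 11 positive differences (14 without non-runner B) and a median of 0.10. Of 15 tested, 0 passed the adjusted threshold. At an unadjusted p under 0.05, where 3.87% of all tested probe sets were higher, 3 were higher, namely Entpd1, Plau and Serpind1 (2 without non-runner B). Of these, Serpind1 was below the control level on all arrays with overlapping groups, and Plau was above it on 1 array, runner C. Entpd1, which breaks down ATP and ADP and so limits platelet activation, averaged 185 ± 19.9 in runners, against 126 ± 25.2 in non-runners (limma adjusted p = 0.572).

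Several members are made by other cells too, so markers of those cells are given beside the results. Platelet markers had 4 probe sets that summed to between 266 and 311 per runner array, against between 211 and 247 per non-runner array, all 4 with a positive difference. Pf4, a platelet chemokine, averaged 179 ± 8.62 in runners, against 140 ± 8.22 in non-runners (limma adjusted p = 0.581). Of the 4, 2 lay below the control level on all arrays, Itgb3 among them. The groups overlapped for Itgb3 and for Itga2b, whose log2 difference was 0.04. Red cell markers had 6 probe sets that summed to between 2236 and 4537 per runner array, against between 1556 and 2046 per non-runner array, with the 4537 on runner C. Of the 6, 3 had a positive difference (Hbb, Hbb-b1 and Alas2) and 3 a negative one (all of Slc4a1, the red cell anion exchanger), so the sums follow the bright beta-globin probe sets. Platelets carry Pecam1, Vwf and Icam2, and the part of blood in the values of these genes was not tested.

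Leukocyte and macrophage markers had 26 probe sets, with 13 positive and 13 negative differences, and summed to between 2418 and 2955 per runner array, against between 2588 and 3029 per non-runner array. The 2 of 16 tested at an unadjusted p under 0.05 were both lower, where 4.21% of all tested probe sets were lower. Without non-runner B, 0 of this list had an unadjusted p under 0.05. Cd74, the invariant chain of MHC class II, averaged 290 ± 52.2 in runners, against 430 ± 90.6 in non-runners (limma adjusted p = 0.581). Adipocyte markers, which bear on the small vessels in fat, had 28 probe sets with 16 positive differences, and 10 without non-runner B. They summed to between 14793 and 15375 per runner array, against between 10327 and 15209 per non-runner array, with the 10327 on non-runner B. An unadjusted p under 0.05 was reached by 7 of them, 5 in the higher and 2 in the lower direction (5 and 4 without non-runner B), while 0 of 27 tested passed the adjusted threshold. Scd, a fatty acid desaturase, averaged 313 ± 4.72 in runners, against 106 ± 54.0 in non-runners in its probe set rc_AI175764_s_at (SD, n = 3, limma adjusted p = 0.296). Fasn, the fatty acid synthase, averaged 1490 ± 98.4 in runners, against 806 ± 352 in non-runners in X13527cds_s_at (adjusted p = 0.519 by limma), and Fabp4, a fatty acid carrier, averaged 676 ± 68.0 in runners, against 485 ± 71.0 in non-runners (adjusted p = 0.521). In these 3 probe sets every runner value was above every non-runner value, with non-runner B lowest. They were named for the smallest p of their list, so this separation adds no support. The brighter Scd probe set, J02585_at, measured 3451.9, 2992.2 and 3623.2 on the runner arrays, against 2674, 2645.2 and 2880 on the non-runner arrays. Its log2 difference was 0.42, against 1.67 for rc_AI175764_s_at. The 2 adipocyte probe sets in the lower direction were of Lpl, L03294_at (-0.38) and L03294_g_at (-0.42). Without non-runner B, the other Lpl probe set (-0.50) and Dgat1 (-0.38) joined them, against -0.37 and -0.33 with all 6 arrays. The part of fat in the values of the members was not tested. Ucp1, the uncoupling protein of brown fat, averaged 1200 ± 324 in runners, against 1251 ± 431 in non-runners (SD, n = 3, limma adjusted p = 0.99).

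Smooth muscle genes had 24 probe sets that summed to between 35252 and 37165 per runner array, against between 35028 and 39691 per non-runner array, and fibroblast and adventitia genes 20 that summed to between 30479 and 32248 per runner array, against between 30733 and 33537 per non-runner array. The sums of the groups overlapped in both lists. Of the 24 smooth muscle probe sets, 18 had a positive difference (15 without non-runner B) with a median of 0.08, and the groups did not overlap for 3 in the higher and 1 in the lower direction. Of the 20 fibroblast and adventitia probe sets, 12 had a positive difference (14 without non-runner B) with a median of 0.05, and the groups did not overlap for 6 in the higher and 2 in the lower direction, where 6.50% and 7.01% of all 8740 did not. In the smooth muscle list, Itga8, an integrin subunit, measured 396.4, 411.2 and 408.5 on the runner arrays, against 311.2, 217.6 and 294.9 on the non-runner arrays (limma adjusted p = 0.52). Tpm1 of that list was lower, at 817 ± 60.2 in runners, against 1038 ± 170 in non-runners (limma adjusted p = 0.67). Pdgfra of the fibroblast list was also lower, at 235 ± 11.5 in runners, against 320 ± 75.8 in non-runners (limma adjusted p = 0.622). Genes shared by Podxl's other cells, podocytes and mesothelium, had 14 probe sets of which 11 lay below the control level on all arrays, with a median of -0.17 (-0.04 without non-runner B). Of the 24, 17 and 3 probe sets of these lists that were tested, 0 passed the adjusted threshold.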

How the data were processed

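Intensities were deposited as 1 table of 8799 probe sets on 6 arrays whose control probe sets carry Affymetrix names, on a linear scale, and the sources used here do not give the software that made them. From the values, the mean of each deposited array without its highest and lowest 2% was about 100.1, as common scaling would give. Medians were 28.5 to 32.2. Of the probe sets, 59 were controls, 7006 others had 1 symbol in the platform annotation, 308 several and 1426 none, and names of all 8 measured members matched RefSeq on GRCr8.

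Controls were left out, log2(intensity + 2.4) was quantile normalized (2.4 being the 10th percentile of positive values), the dimmest 40% were dropped, and limma 3.58.1 in R 4.3.3 compared the groups across 5244 probe sets, two-sided, at an adjusted p of 0.05. Fold changes on this scale understate changes of dim genes. For members, where a group was not above the control level on any array, a bound or no fold is given as a result. Log2 values of such members appear only to show their pattern by array or whether a sign held. The fit was checked on simulated data. Members, 12 other gene lists and the rule for named genes (each list's 3 smallest p, the 5 closest to Egfl7, and Nos3, Acta2 and Ucp1) were chosen with earlier results of these data known. Acta2 averaged 4080 ± 288 in runners, against 4052 ± 987 in non-runners in its brightest probe set (SD, n = 3). Chip letters did not pair the arrays: deviations from group means correlated at -0.09, -0.04 and -0.05 for A, B and C. Figures were drawn with matplotlib 3.10.9.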

Additional observations from a re-analysis of the deposited data

How the results depend on the processing

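Alternatives were pseudocounts of 1 and 16, no quantile normalization, median centring, no filter, the dimmest 60% left out, another variance model, the chip letter as a replicate block, and leaving out each array. The lists without non-runner B were added after seeing the data. In the 8 alternatives with all 6 arrays, limma called 0 probe sets and 0 members, with 311 to 617 probe sets and 1 to 2 members at an unadjusted p under 0.05. The replicate block gave 0 called members and left the differences unchanged by construction (Egfl7 limma adjusted p = 0.413). Leaving out arrays called 0 to 4 probe sets (2 without non-runner A, 4 without non-runner C) and 0 members, with 1 to 3 members at an unadjusted p under 0.05 (3 without non-runner A, of which Pecam1 and Thbd U90121_at higher). The members' median ranged from 0.031 to 0.191, and the count of members with a negative difference from 3 (without runner A) to 5. Of 154 member results, 148 kept their sign and 6 reversed, all 6 with an array left out. The filter and variance model alternatives, like the replicate block, cannot change a difference, so their signs were fixed in advance. With arrays left out, Vwf U50044cds_g_at ranged from -0.068 (without non-runner A) to 0.839, Vwf U50044cds_at from -0.218 (without non-runner B) to 0.897, Icam2 from -0.175 to 0.059 (reversed without runner A, and without non-runner B at 0.041), and Thbd AF022742cds_at from -0.153 to 0.064 (reversed without runner A, and without non-runner A at 0.031). The cause of these reversals was not tested. Signal at or below the control level limits what can be said of Kdr, Vwf, Icam2, Tfpi and, in runners, Egfl7. The ranges given for Vwf and Icam2 therefore show whether a sign held and not the size of a change.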
